A study of Rattus norvegicus with 42 samples.

Results

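The nuclear genes of the mitochondrial respiratory chain were followed in rat metanephric mesenchyme, the embryonic kidney tissue that forms nephrons when it is induced. Members were all genes whose platform symbol names a subunit of complexes I to V or a cytochrome c gene (Nduf a, b, c, s and v subunits, Sdh, Uqcr, Cox4 to Cox8, Cyc1, Cycs and Atp5 symbols). This gave 78 of 14218 genes. There were 34 members in complex I, 4 in complex II, 8 in complex III, 16 in complex IV and 16 in complex V, which here includes the ATP synthase inhibitor Atp5if1. Ndufa4 was counted under complex I by its symbol, although the protein is now placed in complex IV. Each gene was read from its probe set with the highest mean. Members were chosen by name and not by their values.

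Mesenchyme was dissected from rat embryos at embryonic day 13.5 and freed of the ureteric bud with trypsin and DNase. The 42 Affymetrix arrays fall into 21 groups of 2 biological replicates. Fresh tissue was extracted at once, and uninduced cultures were harvested after 1 and 2 days. Cultures with LIF (leukemia inhibitory factor), NGAL (neutrophil gelatinase-associated lipocalin) or the ANX fraction were harvested on days 1, 2, 3, 4, 5 and 7. All cultures, uninduced ones included, grew on collagen-coated transwell filters in medium with dexamethasone, T3, prostaglandin, insulin, selenium and transferrin, plus recombinant FGF and TGF. There was no uninduced culture after day 2, and no fresh tissue of the later ages. What the ANX fraction holds, and how many embryos made a sample, is not stated in the labels. The p-values measure the spread between these duplicates.

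Complexes I and II pass electrons from NADH and succinate to ubiquinone, complex III passes them to cytochrome c, and complex IV, cytochrome c oxidase, reduces oxygen with them. Complexes I, III and IV pump protons, and complex V, the ATP synthase, uses the gradient to make ATP. Most subunits are single genes expressed in every tissue. Several subunits of cytochrome c oxidase come in isoforms, with Cox6a2, Cox7a1 and Cox8b used in heart and skeletal muscle in place of Cox6a1, Cox7a2 and Cox8a, Cox4i2 best known from lung in place of Cox4i1, and Cox6b2 from testis in place of Cox6b1. The kidney tubule is rich in mitochondria once it matures.

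The 150 bases before the start site are shown for a pair of common subunits and a pair of muscle isoforms, because isoforms of complex IV were among the members with the widest spans. They are from RefSeq promoters of assembly GRCr8, read 5′ to 3′ on the gene's strand. Cox4i1 is at chr19:65630233-65630382 on the plus strand, and the other genes are on the minus strand, Cox8a at chr1:213833624-213833773, Cox6a2 at chr1:192219717-192219866 and Cox8b at chr1:205408274-205408423. Capitals mark matches to the motifs searched; they are spelled out with their shares in the last paragraph.
Cox4i1: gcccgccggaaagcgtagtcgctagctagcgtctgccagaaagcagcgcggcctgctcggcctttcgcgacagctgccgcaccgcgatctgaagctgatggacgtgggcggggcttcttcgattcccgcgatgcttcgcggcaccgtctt
Cox8a: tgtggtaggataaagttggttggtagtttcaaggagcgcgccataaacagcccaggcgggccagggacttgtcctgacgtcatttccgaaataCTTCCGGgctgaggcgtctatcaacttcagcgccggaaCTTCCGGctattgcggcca
Cox6a2: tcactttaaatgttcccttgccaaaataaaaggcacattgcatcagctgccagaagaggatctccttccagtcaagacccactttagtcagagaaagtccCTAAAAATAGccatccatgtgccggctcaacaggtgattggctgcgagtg
Cox8b: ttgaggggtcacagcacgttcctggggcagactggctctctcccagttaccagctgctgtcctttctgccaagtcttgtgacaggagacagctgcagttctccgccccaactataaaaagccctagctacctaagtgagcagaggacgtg
Cox6a2 holds CTAAAAATAG, a match to the MEF2 motif of muscle genes, and Cox8a holds CTTCCGG at 2 places, a match to the motif of GABPA, an Ets factor that drives many respiratory genes. The bases shown for Cox8b and Cox4i1 held none of the motifs searched. Promoters were listed for 70 members, and those of Cox4i2 and Cox6a1 were not used here.

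Levels are log2 intensities, where a difference of 1 is a factor of 2. A gene was tested if its highest group mean exceeded log2 5.79, the 40th percentile of all values, and a level below this is called below the signal threshold. This left 11388 genes and 77 of the 78 members. Cox7b2, an isoform of subunit VIIb, was left out with a highest group mean of 4.27. Overall means of the members ran from 4.05 to 12.7. A probe set that also matches a copy or pseudogene names several genes and was left out, so that Cycs, Atp5mc1, Atp5mc2, Cox7a2, Uqcrb, Ndufs5 and Ndufa10 have no value here. Cox5a has a value only through a dim probe set.

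The arrays differ in labelling and in cell type markers. The log2 3'/5' ratio of the r2dap spike-in probes, a measure of labelling, ran from 0.77 to 2.35, and 11 arrays, both uninduced day 2 arrays among them, were above 1.7. A probe for 5S ribosomal RNA averaged 6.47 in fresh tissue and 10.2 in uninduced day 2 cultures. Of 10 cap mesenchyme markers 7 had a probe set of a single gene (Six2, Cited1 and Osr1 did not) and all 7 exceeded the threshold in fresh tissue, where their summed intensity was 7343 and 8131. In fresh tissue the 5 ureteric bud markers on the array, 4 of them measured, summed to 494.5 and 539.7. Skeletal muscle markers summed to 1369 and 1437 in fresh tissue, to 4974 and 5616 in uninduced cultures on day 2 and to 13456 and 25736 in NGAL cultures on day 4. In bulk tissue, fewer cells of a type and less RNA per cell cannot be told apart.

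Respiratory chain genes varied little over the 21 groups. The span between a gene's highest and lowest group mean had a median of 0.45 over the 77 members, against 0.73 over all genes tested and 0.70 over the 2834 genes at least as bright as the 10th percentile of members. A span over 1 was found in 5 members, or 6.49%, and in 31.2% of all genes. All 5 belong to complex IV. They were Cox6a2 (span 2.13), Cox4i2 (2.00), Cox6b2 (1.77), Cox8b (1.58) and Cox5a (1.496). The lowest group means of Cox6a2, Cox4i2 and Cox8b (4.71, 5.09 and 4.85) lie below the signal threshold, so these 3 spans depend on background. With means below the threshold set to it, the spans were 1.05 for Cox6a2, 1.30 for Cox4i2 and 0.64 for Cox8b. Cox6b2 and Cox5a were then the widest, and 4 members, or 5.19%, exceeded 1 against 28.4% of all genes. In complexes I, II and III no member reached a span of 1, and in complex V the widest was Atp5if1 at 0.96, followed by Atp5mk at 0.80. Cox6c and Cox7b, common subunits of complex IV, and Atp5f1c, the gamma subunit of the central stalk of ATP synthase, were among the steadiest, with spans of 0.23, 0.25 and 0.23. The spread between duplicates was also smaller in the members, with a median within-group SD of 0.14 against 0.19 for all genes, and a smaller error also narrows a span. Spans are descriptions and were not tested.

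**Figure D1:**
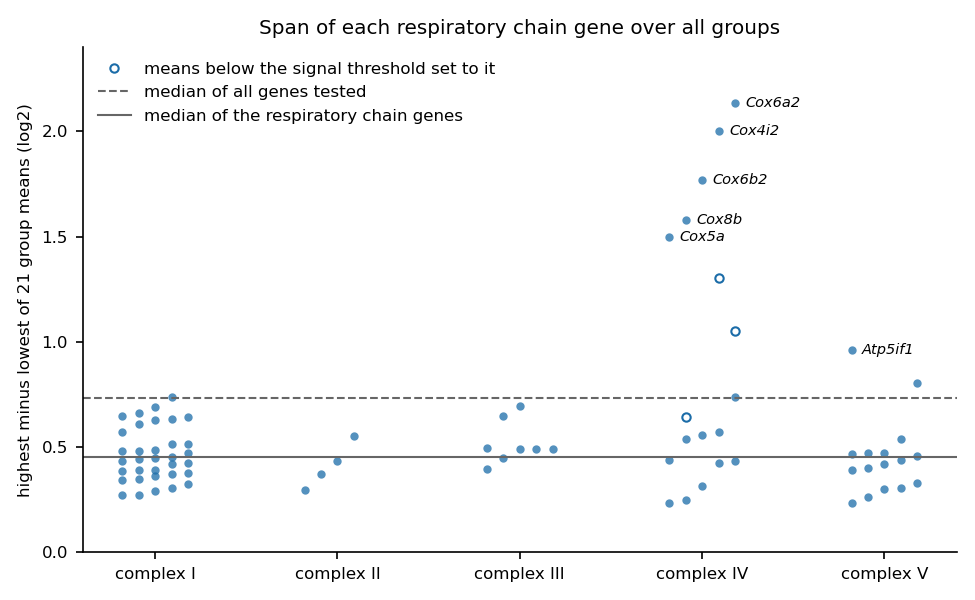
Span of each of the 77 tested respiratory chain genes, by complex. Each point is the highest minus the lowest of 21 group means (log2, 2 arrays a group); the lines are medians over all genes tested (0.73) and over the members (0.45). Open circles give the span with means below the signal threshold set to it, where this differs. The 5 filled points above 1 are Cox6a2, Cox4i2, Cox6b2, Cox8b and Cox5a, all in complex IV, and of these Cox8b falls to 0.64 with that setting.

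After 1 day of culture without inducer, most members read slightly above fresh tissue. The median over the members of single arrays had a pooled SD of 0.10 within groups, and medians here and below were not tested. Counts of members above fresh tissue are descriptions too. Of 77 members 65 lay above fresh tissue, with a median of 0.14, while the median of all genes was 0.00. Complex I was above in 33 of 34 members (median 0.22), complex II in 4 of 4 (0.05), complex III in 8 of 8 (0.13), complex IV in 9 of 15 (0.08) and complex V in 11 of 16 (0.06). Single genes rarely passed the test at this size of difference. After limma's fit over all genes with Benjamini-Hochberg adjustment, 2 members were called higher and 0 lower, or 2.60%, against 6.06% of all genes (3.80% higher, 2.26% lower). They were Uqcrh, the hinge subunit that docks cytochrome c on complex III, and Ndufa7, an accessory subunit of complex I. Uqcrh read 11.23 and 11.27 in fresh tissue and 11.92 and 11.57 after 1 day, a rise of 0.49 (SE 0.14, adjusted p = 0.0424). Both cultured arrays were above both fresh arrays. Ndufa7 rose by 0.53 (SE 0.15, adjusted p = 0.035), but a dimmer second probe set gave only 0.07 on uninduced day 2 and -0.02 on induced day 7, where the brighter one gave 0.48 and 0.51. The count fell to 0 in fits that left out either fresh array or control replicate 1 of day 1.

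After 2 uninduced days the members had spread in both directions, with 8 called higher and 4 lower. All genes had 22.2% called (9.47% higher, 12.7% lower), and the members 15.6%. The median difference was 0.06, with 46 of 77 above fresh tissue, against -0.05 over all genes. In complex I Ndufb2 (0.58, SE 0.19), Ndufv3 (0.57, SE 0.18), Ndufa1 (0.54, SE 0.19) and Ndufa7 (0.48, SE 0.15) rose. All 4 are accessory subunits. Ndufs1, the large iron-sulfur core subunit that receives electrons from the flavin, fell by 0.53 (SE 0.17), from 10.34 and 10.40 to 9.86 and 9.82, with no overlap. Ndufc1 fell by 0.29 (SE 0.10). In complex III Uqcrh (0.47, SE 0.14) and Uqcr10 (0.40, SE 0.14) rose. In complex V the 2 subunits that form the catalytic head fell, Atp5f1b by 0.47 (SE 0.15) and Atp5f1a by 0.37 (SE 0.11), while Atp5if1, which blocks ATP hydrolysis, rose by 0.74 (SE 0.25).

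Few arrays stand behind the day 2 calls. Both uninduced day 2 arrays had a high spike-in ratio (1.97 and 2.04, against 1.06 and 1.08 in fresh tissue), and with this ratio as a covariate 1 member was called. For 9 calls named above that ended, the covariate fit gave rises of 0.23 to 0.44 and falls of 0.25 to 0.45, all in the same direction, with adjusted p from 0.0925 to 0.183. The part of labelling was not tested beyond this fit. Without either fresh array or either day 2 array the count was 1. The member called in all of these fits was Cox6b2, which read 7.51 and 7.56 in fresh tissue and 9.27 and 9.35 on day 2, a rise of 1.77 (SE 0.40, adjusted p = 0.00322). Cox6b2 is the testis isoform of subunit VIb, and its common counterpart Cox6b1 was not called. Markers of other cells were lower too. Of 7 measured erythroid markers 6 were called lower on uninduced day 2 and 0 higher, with a summed intensity of 16544 and 18301 in fresh tissue and 3192 and 4141 on day 2. Of 7 measured endothelial markers 4 were lower and 0 higher (2862 and 2957 against 1303 and 1351). Their part in these differences was not tested.

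With an inducer in the medium the first day gave 10 members higher and 0 lower than fresh tissue (6 arrays against 2), or 13.0%, beside 14.6% of all genes called (8.44% higher, 6.21% lower). The median was 0.15 with 62 of 77 members above fresh tissue, and the median of all genes was -0.01. Atp5if1 rose by 0.80 (SE 0.20, adjusted p = 0.00845), from 9.59 and 9.54 to between 10.17 and 10.70 (median 10.34), so that all 6 cultured arrays lay above both fresh ones. Ndufb9, an accessory subunit of the proton-pumping arm of complex I, rose by 0.47 (SE 0.09, adjusted p = 0.000695), from 11.21 and 11.30 to between 11.65 and 11.80, and stayed called whichever array was left out. The other calls in complex I were Ndufb1 (0.55, SE 0.18), Ndufa7 (0.37, SE 0.12) and Ndufa8 (0.30, SE 0.10). In complex III Uqcrh (0.45, SE 0.12) and Uqcr10 (0.37, SE 0.11) were higher, in complex IV Cox7c (0.45, SE 0.13) and Cox6a1 (0.31, SE 0.09), and in complex V Atp5f1d (0.28, SE 0.08), the delta subunit of the central stalk. Of the erythroid markers 6 of 7 were lower and 0 higher (sums of 2591 to 4112), and of the endothelial ones 5 of 7 lower and 0 higher (1223 to 1848), and their part was not tested. These differences share the 2 fresh arrays with those of the uninduced cultures. The count was 1 without fresh replicate 1 and 1 without fresh replicate 2, and 5 or 6 without the second array of ANX, LIF or NGAL on day 1.

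**Figure D2:**
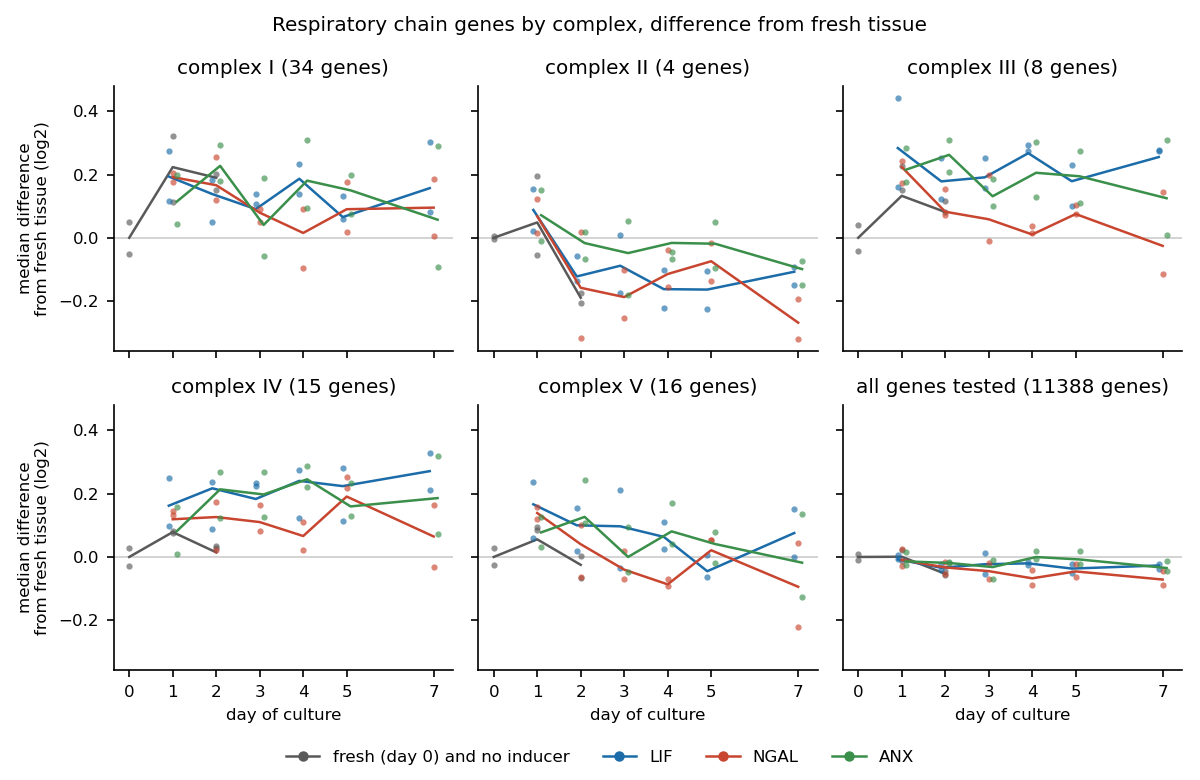
Median log2 difference from fresh tissue over the genes of each complex and over all 11388 genes tested, by day of culture. Points are single arrays, lines join the medians of group means, and colours are fresh or uninduced, LIF, NGAL and ANX. Complex II lies below fresh tissue in all groups from day 2 on, complex III is higher with LIF and ANX than with NGAL from day 2 on, and the median of all genes lies between -0.07 and 0.00 in every group.

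Complex II, which also serves the tricarboxylic acid cycle, lay below fresh tissue from day 2 on. On uninduced day 1 all 4 members were slightly above it (0.00 to 0.12). On induced day 1 Sdhb (0.13), Sdhc (0.08) and Sdhd (0.08) were above it and Sdha (-0.08) below. From day 2 on its median over 4 members was negative in every group, from -0.02 with ANX on days 2, 4 and 5 to -0.27 with NGAL on day 7. All 4 members, Sdha, Sdhb, Sdhc and Sdhd, were lower than in fresh tissue both in uninduced day 2 cultures (median -0.19) and in induced day 7 cultures (median -0.15). None of these differences was called. Sdha, the flavoprotein that oxidises succinate, read 10.52 and 10.72 in fresh tissue and 10.26 and 10.30 in uninduced day 2 cultures, a difference of -0.34 (SE 0.14, adjusted p = 0.0867). Both probe sets of Sdhd, a membrane anchor, were lower on uninduced day 2 (-0.26 and -0.51). The dimmer one read 10.51 and 10.06 with ANX on day 2, in arrays with spike-in ratios of 1.05 and 2.35. Both uninduced day 2 arrays had high ratios (1.97 and 2.04), and the part of labelling was not tested beyond the covariate fit. Of all 11388 genes tested, 6303 were below fresh tissue on uninduced day 2.

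After 7 days with an inducer 15 members were higher and 1 lower than in fresh tissue (6 arrays against 2), or 20.8%, beside 34.5% of all genes called (15.9% higher, 18.6% lower). The median was 0.08, against -0.04 for all genes, and 53 of 77 members were above 0. Of the erythroid markers 6 of 7 were lower and 0 higher, with sums of 371 to 551, and of the endothelial ones 6 of 7 were lower and 0 higher, with sums of 523 to 1639. Their part in the member differences was not tested. Complex I had 8 higher and 1 lower of 34, complex III 2 higher of 8, complex IV 3 higher of 15 and complex V 2 higher of 16. Cox4i1, the common form of subunit IV and among the brightest members, read 12.05 and 12.08 in fresh tissue and between 12.24 and 12.54 in the 6 cultured arrays, a rise of 0.34 (SE 0.08, adjusted p = 0.00188). Cox4i1 and Uqcrh (0.53, SE 0.12, adjusted p = 0.00107) stayed called whichever array was left out. Ndufb1 (0.65, SE 0.18), Ndufv3 (0.57, SE 0.15), Ndufa7 (0.51, SE 0.12), Ndufb2 (0.50, SE 0.16) and Ndufa1 (0.47, SE 0.15) rose in complex I. Ndufa13, known also as the cell death regulator GRIM-19, rose by 0.46 (SE 0.14). Ndufs1 fell by 0.49 (SE 0.14), with the 6 cultured arrays between 9.62 and 10.11 and both fresh arrays above them.

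Cox5a, which with Cox5b clasps the core of cytochrome c oxidase, had the largest rise on day 7, 1.12 (SE 0.34, adjusted p = 0.013). Its arrays read 6.13 and 5.96 in fresh tissue and between 6.79 and 7.40 on day 7, with no overlap. This probe set is dim, with duplicates as far apart as 6.48 and 7.85 with ANX on day 2, and the call ended without fresh replicate 1 (adjusted p = 0.0691) and without fresh replicate 2 (adjusted p = 0.125). Among arrays at or below a ratio of 1.7 the difference was 0.98 with adjusted p = 0.0577. The count of members called dropped from 16 to 3 when fresh replicate 1 was left out, to 8 when fresh replicate 2 was, and to 8 (5 higher, 3 lower) when arrays above a ratio of 1.7 were. Several members have a second, dimmer probe set. That of Ndufv3 was also above fresh tissue (0.32), while that of Ndufa7 was not (-0.02). Among members not called, the brighter and dimmer probe sets gave 0.08 and -0.40 for Uqcrc2 and 0.31 and -0.11 for Atp5po.

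Against uninduced cultures of the same days (means of days 1 and 2, 4 arrays against 4), LIF gave 3 members higher and 2 lower, or 6.49%, where 24.0% of all genes were called (11.4% higher, 12.6% lower). Atp5mk, a small membrane subunit of ATP synthase known as DAPIT, read between 11.92 and 12.23 with LIF and between 11.32 and 11.64 in uninduced cultures, with no overlap. It was higher by 0.55 (SE 0.13, adjusted p = 0.00446). Ndufb9 was higher by 0.25 (SE 0.08) and Atp5f1d by 0.20 (SE 0.07). Cox6b2 was lower by 1.13 (SE 0.28, adjusted p = 0.00574), between 7.64 and 7.98 with LIF and between 8.43 and 9.35 without. Ndufb4, of the membrane arm of complex I, was lower by 0.30 (SE 0.11). Atp5mk and Cox6b2 stayed called whichever array was left out. The count was 0 on day 1 alone and 1 on day 2 alone. Among fits with an array left out it was 2 for control day 1 replicate 1, control day 2 replicate 2 and LIF day 2 replicate 1, 3 for control day 2 replicate 1 and LIF day 1 replicate 2, and 8 for control day 1 replicate 2.

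ANX against the same uninduced cultures gave 3 members higher and 0 lower, or 3.90%, where 20.3% of all genes were called (11.2% higher, 9.12% lower). Atp5mk was between 11.93 and 12.22 with ANX, higher by 0.55 (SE 0.13, adjusted p = 0.00575). Atp5f1d was between 10.87 and 10.98, above the uninduced range of 10.53 to 10.78, and higher by 0.29 (SE 0.07, adjusted p = 0.00468). Ndufs3, a core subunit of the ubiquinone-binding arm of complex I, was higher by 0.27 (SE 0.09, adjusted p = 0.0459), a call that ended whichever array was left out. The count was 0 on day 1 alone and 6 with control day 1 replicate 2 left out. NGAL against the uninduced cultures gave 0 members called and 0 of all genes called (0%) by limma, with 1 member and 799 genes at an unadjusted p under 0.05. The member with the lowest p was Atp5mk, which read between 11.64 and 12.04 with NGAL and above the whole uninduced range, by 0.42 (SE 0.13), but was not called (adjusted p = 0.447). Among the isoforms the NGAL difference of Cox6b2 was -0.30 (SE 0.28). The 3 comparisons share the uninduced arrays, whose mean spike-in ratio was 1.69 against 1.28 to 1.54 in the induced groups. The part of labelling in these differences was not tested beyond the covariate fit. Of 6 renal stroma markers 5 were lower with LIF, 4 with ANX and 0 with NGAL, and 0 were higher, with sums of 14738 to 17332 in uninduced cultures, 8617 to 10195 with LIF and 8949 to 10918 with ANX. Of 7 endothelial markers 6 were lower with LIF, 4 with ANX and 0 with NGAL, and 0 were higher, with sums of 1303 to 2829, 629.5 to 1239 and 877.3 to 1588. Their part was not tested.

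Within each inducer's own time course few members changed between the mean of days 1 and 2 and the mean of days 5 and 7 (4 arrays against 4). With LIF 1 member rose and 1 fell, or 2.60%, where 9.09% of all genes were called (4.22% higher, 4.86% lower). Cox7a2l, which helps to join complexes III and IV into a supercomplex, read between 10.72 and 11.06 early and between 11.19 and 11.91 late, a rise of 0.52 (SE 0.12, adjusted p = 0.00788). Ndufs8, an iron-sulfur subunit of complex I, fell by 0.27 (SE 0.08, adjusted p = 0.0349). The count was 0 without day 1 replicate 1, day 5 replicate 2 or day 7 replicate 1 of LIF, and 1 without day 1 replicate 2, day 5 replicate 1 or either day 2 array. Without day 7 replicate 1, the highest array, the difference of Cox7a2l was 0.34 (adjusted p = 0.0637).

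With NGAL only Sdhb, the iron-sulfur subunit of complex II, was called, with a fall of 0.30 (SE 0.10, adjusted p = 0.0446) and overlapping arrays (11.48 to 11.82 early, 11.13 to 11.55 late). This was 1.30% of members, where 12.0% of all genes were called (6.23% higher, 5.73% lower). Of the 77 members 55 lay below 0, with a median of -0.09. Day 7 against day 1 gave 10 members lower and 0 higher, where 15.5% of all genes were called. Arrays at or below a spike-in ratio of 1.7 gave 8 lower and 0 higher for the means of days, where 11.2% were. The count was 5 without day 2 replicate 2 or day 7 replicate 2, and 0 without either day 1 array, day 2 replicate 1, day 5 replicate 2 or day 7 replicate 1.

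With ANX Cox4i2 rose and Ndufa5 fell, or 2.60% of members, where 15.9% of all genes were called (8.06% higher, 7.81% lower). Cox4i2, the isoform of subunit IV known from lung and induced by low oxygen in some cells, read 5.48 and 5.27 on day 1, 5.61 and 5.19 on day 2, 6.15 and 5.39 on day 3, 6.08 and 5.83 on day 4, 6.97 and 5.64 on day 5, and 7.21 and 6.97 on day 7. The late arrays were all above the early ones, and the duplicates of day 5 were far apart. The rise was 1.31 (SE 0.20, adjusted p = 8.33e-05), or 0.91 with means below the signal threshold set to it, since the early level was below it. Left-out arrays gave values between 0.97 and 1.64 and no loss of the call. Fresh tissue read 5.69 and 5.71, also below the threshold. Ndufa5, an accessory subunit of complex I, read between 9.71 and 10.07 early and between 9.23 and 9.60 late, a fall of 0.51 (SE 0.11, adjusted p = 0.00174) with no overlap and no loss of the call. The count of members rose to 10 without day 7 replicate 2 and to 7 with the spike-in ratio as a covariate.

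The difference between time courses was tested as well and did not pass for Cox4i2. Its late minus early change was 0.41 (SE 0.20) with LIF and 0.56 (SE 0.20) with NGAL, neither called, or 0.14 and 0.05 with means below the threshold set to it. ANX minus LIF was 0.90 with adjusted p = 0.575, and ANX minus NGAL was 0.74 with adjusted p = 0.16, and neither shows that the courses are alike. Of 77 members 0 were called in any of these 3 differences, with 0.0439%, 2.79% and 0.316% of all genes called for ANX minus LIF, ANX minus NGAL and NGAL minus LIF. The moderated F-test of inducer by day called 4 of 11388 genes (0.0351%) and 0 members, with 3 members at an unadjusted p under 0.05. The lowest adjusted p was 0.215, for Cox6a2, and without day 4 replicate 1 of NGAL 1 member was called.

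Over the 6 days (12 arrays against 12), more members were called between NGAL and the other inducers, as were more genes in general. In both comparisons with NGAL the called share of members was below that of all genes. Averaged over days, LIF against NGAL gave 17 members higher and 3 lower, or 26.0%, where 41.7% of all genes were called (21.5% higher, 20.3% lower). The median was 0.07 with 57 of 77 members higher with LIF, and 0.03 over all genes. Markers of other cells also differed. Of 6 measured renal stroma markers 5 were lower and 1 higher with LIF, and their sums ran from 6904 to 10195 with LIF, 11910 to 20322 with NGAL and 6948 to 13156 with ANX. Of 7 cap mesenchyme markers 3 were higher and 1 lower with LIF, with sums of 5772 to 9294 with LIF, 1746 to 8261 with NGAL and 5156 to 10085 with ANX. Their part in the member differences, here and between NGAL and ANX, was not tested. The differences were small against the range of the days, and in each called member the arrays of the 2 inducers overlapped, as they did in all but 0.764% of all genes. Genes in this comparison and the next, other than the isoforms of subunits IV, VIa, VIIa and VIII, Cyc1, Atp5mc3 and the Sdh genes, were picked once their values were known.

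In complex I the members higher with LIF were Ndufs3 (0.20, SE 0.05), Ndufb7, Ndufb9, Ndufs8 and Ndufv1 (0.12 to 0.18). In complex II it was Sdhb (0.24, SE 0.06). In complex III Uqcrq (0.21, SE 0.06), Cyc1, the cytochrome c1 that hands electrons to cytochrome c (0.21, SE 0.05), and Uqcrc1 (0.18, SE 0.05) were higher. In complex IV Cox5b had the largest of these differences, with arrays from 11.15 to 11.48 (median 11.30) with LIF and from 10.69 to 11.32 (median 11.05) with NGAL, and a difference of 0.29 (SE 0.05, adjusted p = 0.000135). Cox6a1 (0.20, SE 0.05), Cox7c, Cox8a and Cox6b1 (0.12 to 0.16) followed, and in complex V Atp5mk (0.28, SE 0.08), Atp5me (0.15, SE 0.06) and Atp5f1d (0.10, SE 0.04). Lower with LIF were Cox6b2, Cox6a2 and Cox8b, all isoforms of restricted tissue range. Their common counterparts Cox6a1, Cox6b1 and Cox8a were called the other way. Cox6a2 and Cox8b passed the signal filter by a group mean with NGAL, so their calls rest on the group that admitted them. The count lay between 15 and 25 in fits with an array left out.

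**Figure D3:**
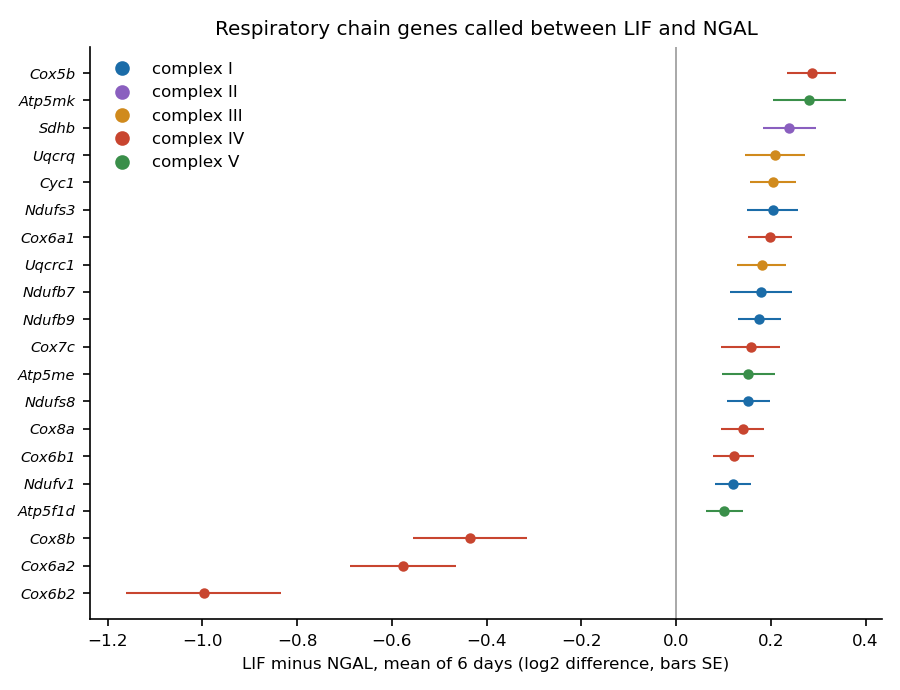
The 20 respiratory chain genes called between LIF and NGAL, as log2 difference of LIF minus NGAL averaged over 6 days, 12 arrays each. Bars are the model's SE and colours are complexes. The 17 genes higher with LIF differ by 0.10 to 0.29, and Cox6b2, Cox6a2 and Cox8b are at -0.997, -0.58 and -0.43.

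NGAL against ANX gave 3 members higher and 16 lower, or 24.7%, where 37.5% of all genes were called (15.3% higher, 22.2% lower). This comparison shares the NGAL arrays with the one before, so that the 2 are not independent. Renal stroma markers had 5 of 6 higher and 1 lower with NGAL, and cap mesenchyme markers 5 of 7 lower and 0 higher. Here too the arrays of each called member overlapped, and 0.114% of all genes had groups that did not. Lower with NGAL were, in complex V, Atp5f1d (-0.24, SE 0.04, adjusted p = 9.22e-05), Atp5f1b (-0.23, SE 0.06), Atp5f1a (-0.14, SE 0.05) and Atp5mc3 (-0.13, SE 0.04), the last a gene of the rotating c ring. Atp5f1d read 10.44 to 10.86 with NGAL (median 10.70) and 10.85 to 11.04 with ANX (median 10.92). Only the ends of the ranges overlap. In complex III Uqcrc1 (-0.24, SE 0.05), Uqcrfs1, the Rieske iron-sulfur protein (-0.20, SE 0.08), and Cyc1 (-0.13, SE 0.05) were lower. In complex IV Cox4i2 (-0.56, SE 0.12, or -0.31 with means below the threshold set to it), Cox5b (-0.22, SE 0.05), Cox6a1 (-0.21, SE 0.05), Cox8a (-0.18, SE 0.05) and Cox6b1 (-0.11, SE 0.04) were lower. Ndufs3, Ndufs8, Ndufv1 and Ndufa6 were lower in complex I (-0.12 to -0.19). Higher with NGAL were Cox6a2, Cox6b2 and Cox8b. Of these, Cox6a2 and Cox8b had passed the signal filter by a group mean with NGAL. Leaving out an array gave counts between 14 and 24. LIF against ANX gave 0 members called, where 5.01% of all genes were called by limma (1.63% higher, 3.37% lower), with 5 members at an unadjusted p under 0.05. Leaving out day 3 replicate 1 of ANX gave 2. Leaving out LIF day 1 replicate 1, day 2 replicate 1, day 3 replicate 2 or day 4 replicate 2, or ANX replicate 2 of days 2, 4 or 5 or replicate 1 of day 7, gave 1.

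Cox6a2 and Cox8b, the muscle isoforms of subunits VIa and VIII, were below the signal threshold in nearly all cultures and rose above it mainly with NGAL on days 3 to 5. Cox6a2 read 4.82 and 5.01 in fresh tissue, and with NGAL 4.93 and 4.94 on day 1, 4.81 and 4.79 on day 2, 6.07 and 5.77 on day 3, 6.20 and 7.48 on day 4, 5.41 and 5.93 on day 5, and 4.93 and 5.16 on day 7. It was above the threshold of 5.79 in 4 arrays, all with NGAL on days 3 to 5. With LIF no array exceeded 5.51, and with ANX none exceeded 5.21. Over the 6 days NGAL was above LIF by 0.58 (SE 0.11, adjusted p = 0.000221) and above ANX by 0.59 (SE 0.11, adjusted p = 0.000288). With means below the threshold set to it, both differences were 0.20. Cox6a2 passed the signal filter by its highest group mean, which was with NGAL on day 4. Both calls thus rest on the group that admitted the gene, and give no support apart from that choice. Without any single array the LIF minus NGAL difference stayed between -0.68 and -0.47 and was called.

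Cox8b followed the same days. With NGAL it read 5.08 and 5.05 on day 1, 5.05 and 5.09 on day 2, 6.29 and 5.64 on day 3, 5.95 and 6.91 on day 4, 5.54 and 6.16 on day 5, and 5.28 and 5.58 on day 7. With LIF it was between 4.75 and 5.72, and with ANX between 4.85 and 5.996, the highest an array of day 3. Cox8b too passed the signal filter by its highest group mean, with NGAL on day 4, so the same limit holds for its calls. The difference of LIF minus NGAL was -0.43 (SE 0.12, adjusted p = 0.00539) and that of NGAL minus ANX 0.49 (SE 0.12, adjusted p = 0.00282). With means below the threshold set to it, they were -0.15 and 0.15. Among arrays at or below a spike-in ratio of 1.7 both missed the threshold, with adjusted p = 0.0562 and adjusted p = 0.0607. The one array with ANX at 5.996 had a muscle marker sum of 2444, the lower of its pair. The bases printed for these genes differ, with the MEF2 match in those of Cox6a2 and none of the motifs in those of Cox8b. The longer window of Cox8b holds a hypoxia motif, as does that of its common counterpart Cox8a. Cox7a1, the third muscle isoform, did not join Cox6a2 and Cox8b. Its group mean was highest in fresh tissue (6.38 and 6.30), and with NGAL it lay between 5.68 and 6.36, with a LIF minus NGAL difference of 0.03 (SE 0.05).

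**Figure D4:**
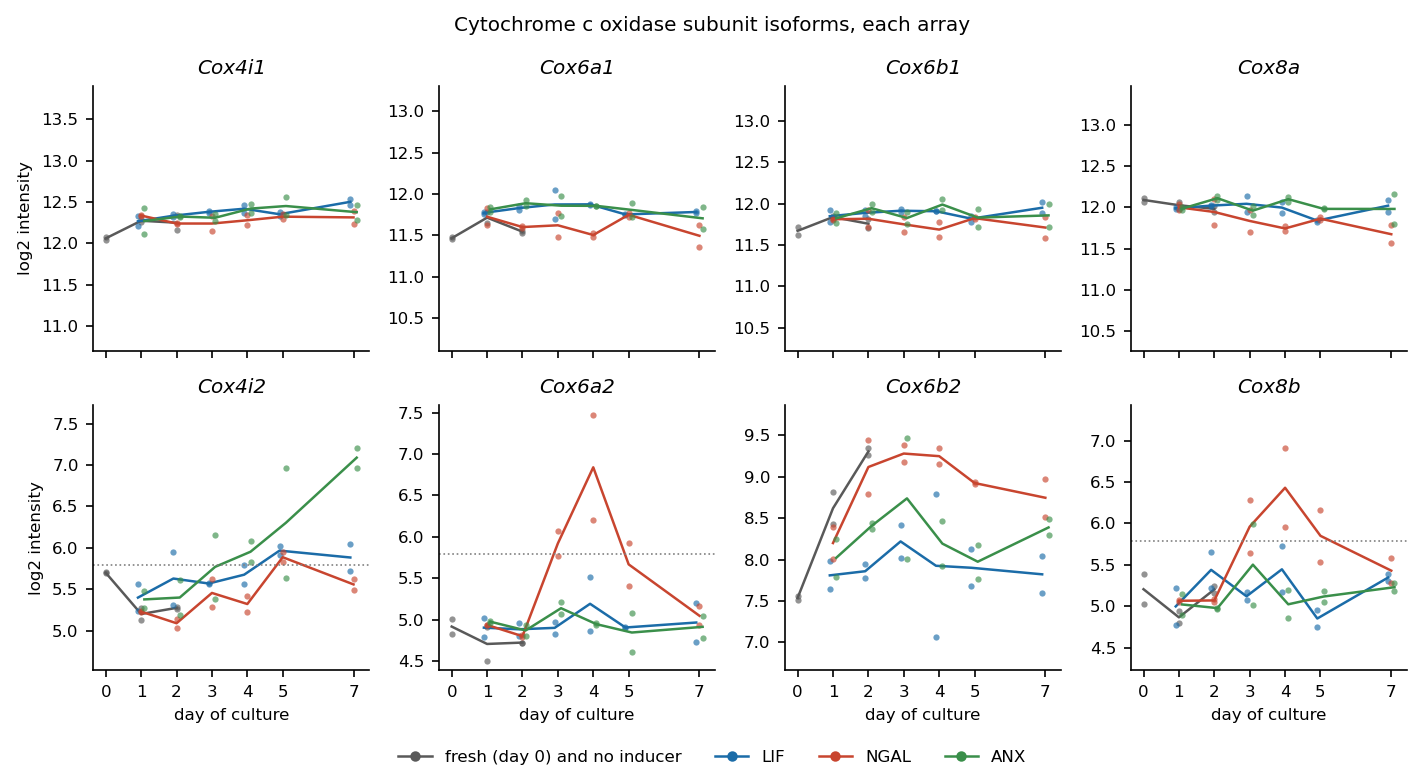
Log2 intensity of 4 common subunits of cytochrome c oxidase (top) and of their isoforms of restricted tissue range (bottom), by day of culture. Points are arrays, lines join group means, the dotted line is the signal threshold of 5.79, and every panel spans the same height. The common forms stay nearly level, while Cox6a2 and Cox8b peak with NGAL on day 4, Cox4i2 is highest with ANX on day 7 and Cox6b2 is lowest in fresh tissue.

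The summed skeletal muscle markers, like Cox6a2 and Cox8b, were highest with NGAL on day 4, but they were also raised on uninduced day 2. Of 12 markers 10 were on the array and 9 were measured, and Ckm, the muscle creatine kinase, was below the threshold in every group. The summed intensity of the list with NGAL was 2446 and 2498 on day 1, 12248 and 14000 on day 3, 13456 and 25736 on day 4, 7997 and 18690 on day 5, and 4111 and 8895 on day 7. With ANX it was between 2113 and 4886 over all days. With LIF it was between 2460 and 4853 but for 9091 in an array of day 4, the array in which Cox6a2 and Cox8b reached their LIF maxima of 5.51 and 5.72. All 9 measured markers were called higher with NGAL than with ANX (median 2.44), and 7 of 9 were called lower with LIF than with NGAL (median -1.99). On the whole marker list the second NGAL array of day 4 was the highest, as it was for Cox6a2 and Cox8b. On uninduced day 2 the sum was 4974 and 5616, against 1369 and 1437 in fresh tissue. Cox6a2 (4.72 in both arrays) and Cox8b (5.17 and 5.24) were then still below the threshold. Des had no such peak, with a group mean of 10.58 both with NGAL on day 4 and with LIF on day 1. The part of muscle cells in the isoform result was not tested.

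**Figure D5:**
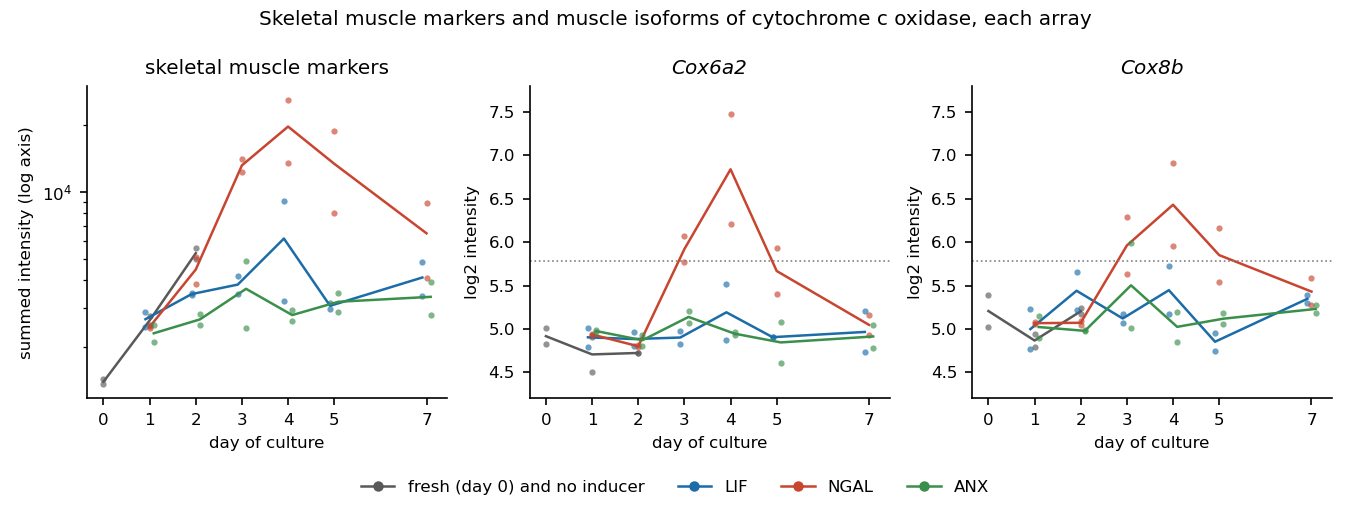
Summed intensity of the 10 skeletal muscle markers on the array, 9 of them measured (left, log axis), by day of culture. Beside it is the log2 intensity of Cox6a2 and Cox8b (dotted line, signal threshold of 5.79). Points are arrays and lines join group means. All 3 quantities are highest with NGAL on day 4 and lower again on day 7.

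Cox6b2 had another course. It was lowest in fresh tissue (7.51 and 7.56), and read 8.81 and 8.43 in uninduced cultures on day 1 and 9.27 and 9.35 on day 2. With NGAL it read 8.003 and 8.40 on day 1, 8.79 and 9.45 on day 2 and between 8.52 and 9.38 afterwards. With LIF the median of 12 arrays was 7.96 and with ANX 8.27. LIF minus NGAL was -0.997 (SE 0.16, adjusted p = 4.21e-05) and NGAL minus ANX 0.63 (SE 0.16, adjusted p = 0.00413). Both stayed called whichever array was left out. Unlike Cox6a2, it was well above the signal threshold in all groups, and was already high in uninduced cultures, where Cox6a2 read 4.50 to 4.91. Col1a1, a collagen of the renal stroma list, also read high in uninduced day 2 and NGAL cultures, with a group mean of 8.76 in fresh tissue, 11.02 on uninduced day 2, 9.40 to 11.90 with NGAL, 7.82 to 8.66 with LIF and 8.16 to 9.31 with ANX. Of the other stroma markers, Col1a2 (10.84 to 12.18) and Meis1 (11.73 to 12.06) were also higher on uninduced day 2 than in fresh tissue. Rarb (9.69 to 7.87), Tcf21 (11.06 to 10.43) and Meis2 (12.15 to 12.04) were lower. Summed over the stroma list, fresh tissue had 12616 and 13764 and uninduced day 2 cultures 16281 and 17332. The part of stromal cells in the course of Cox6b2 was not tested.

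Other mitochondrial and metabolic genes were compared from lists chosen by function. Their counts stand beside the shares of all genes called, which for LIF against uninduced cultures were 11.4% higher and 12.6% lower. In that comparison 10 of 19 genes for protein import and folding were called higher and 0 lower (median 0.31), while 3 of 77 chain members were higher. Examples are Tomm40, the outer membrane import channel (0.63, SE 0.11), and Hspe1, the mitochondrial chaperonin partner (0.51, SE 0.09). Of 73 mitochondrial ribosomal proteins 13 were higher and 1 lower, among them Mrpl12 (0.55, SE 0.09). Of 16 regulators of mitochondrial biogenesis 5 were higher and 0 lower, including Pprc1, a PGC-1 related coactivator (0.54, SE 0.11), and Polg, the mitochondrial DNA polymerase (0.30, SE 0.07). ANX gave 9 of 19, 10 of 73 and 4 of 16 higher and 0 lower in the same lists, beside 11.2% of all genes higher, a share close to that of the ribosomal proteins, with Tomm40 at 0.66 (SE 0.11). All genes had medians of 0.03 in both comparisons.

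Between LIF and NGAL, where 21.5% of all genes were higher and 20.3% lower, 13 of 19 import genes were higher with LIF and 0 lower (median 0.24), with Timm8a1 at 0.55 (SE 0.08) and Timm13, its relative among the small Tim chaperones, at 0.37 (SE 0.06). Mitochondrial ribosomal proteins had 37 of 73 higher and 2 lower (median 0.15), assembly factors of the complexes 8 of 26 higher and 1 lower, including Ndufaf5 (0.35, SE 0.06) and Ndufaf4 (0.40, SE 0.07), and biogenesis regulators 7 of 16 higher and 1 lower, including Polg2 (0.39, SE 0.07). Genes of the tricarboxylic acid cycle had 3 of 14 higher and 2 lower, with Idh3a at 0.43 (SE 0.08). The counts of this cycle and of the assembly factors lie near the shares of all genes. NGAL against ANX, with 22.2% of all genes lower and 15.3% higher, gave 12 of 19 import genes lower, 24 of 73 ribosomal proteins lower and 2 higher, and 8 of 26 assembly factors lower. Among carriers and oxidant defence genes 6 of 10 were lower with NGAL than with ANX. The lowest adjusted p was that of Sod2, the mitochondrial superoxide dismutase, at -1.005 (SE 0.09).

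Some fuel genes gave larger differences than any member of the chain. Cpt1a, which admits fatty acids to mitochondria, was higher than in fresh tissue by 3.48 (SE 0.25) on uninduced day 2 and by 2.86 (SE 0.20) on induced day 7, and its LIF minus uninduced difference was -1.59 (SE 0.18). In the fatty acid oxidation list 5 of 15 were lower with LIF than in uninduced cultures and 0 higher (all genes 12.6% lower), and with ANX 4 were lower and 0 higher (9.12%). Between early and late ANX cultures, where 8.06% of all genes rose and 7.81% fell, 4 of 15 rose and 0 fell, with Acaa2 at 1.11 (SE 0.19). Of 17 glycolysis genes 11 were lower and 1 higher on uninduced day 2 than in fresh tissue (median -0.65), beside 12.7% and 9.47% of all genes, Ldha among them (-1.29, SE 0.17). With LIF 6 were higher and 1 lower than in uninduced cultures (all genes 11.4% and 12.6%). With ANX 8 were higher and 2 lower (all genes 11.2% and 9.12%). From early to late ANX cultures 8 rose and 1 fell (median 0.39), including Pdk1, the kinase that shuts pyruvate out of mitochondria (0.87, SE 0.14), while Cox4i2 was the single chain member that rose.

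Regulators gave mixed values beside the chain. Esrra, an orphan nuclear receptor that drives respiratory genes, was above fresh tissue by 0.59 (SE 0.09) on induced day 1, 0.40 (SE 0.11) on uninduced day 2 and 0.68 (SE 0.09) on induced day 7. Tfam, the packaging factor of mitochondrial DNA, was below it on uninduced day 2 (-0.74, SE 0.16) and on induced day 7 (-0.52, SE 0.13), and so was Gabpa on induced day 7 (-0.56, SE 0.13). Of the 16 regulators 1 was higher and 5 lower on induced day 7, beside 15.9% and 18.6% of all genes, with a median of -0.12.

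Motifs were searched on both strands of the 250 bases before each start site in the RefSeq promoters (GRCr8). The GABPA motif CCGGAAG was present in 19 of 70 member promoters, or 27.1%, in 15.0% of 9471 promoters of genes tested here and in 7.74% of all 27457. The motif GCATGCGC of NRF1, a further activator of respiratory genes, was in 7 of 70, and in 4.43% and 2.38%. The YY1 motif AAGATGGCG was in 1 of 70 (1.43%, against 1.29% and 0.736%), and the hypoxia motif TACGTG in 4 of 70 (5.71%, against 3.48% and 2.95%). A loose form of the MEF2 motif, CTA and TAG with any 4 bases between, was in 2 of 70 (2.86%, against 2.57% and 3.43%). These were Cox6a2 and Cox5b. Of these genes Cox6a2 was higher and Cox5b lower with NGAL than with LIF or ANX. No motif contains another, and a match is a description of these windows only.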

How the data were processed

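RNA of 42 samples was measured on Affymetrix rat genome arrays, 1 per sample. The authors deposited RMA-normalized intensity values on a linear scale, RMA per the submitters' processing notes and the scale from the values themselves (array medians 83.3 to 88.4), so background correction, quantile normalization and summarization were theirs. Log2 of the deposited intensity was taken here, and the log2 values are not part of the deposited file. Of 31099 probe sets 20832 name 1 gene, 436 several and 9831 none in the platform annotation. Of the 20832, 20764 matched a RefSeq gene by number (GRCr8). Promoter sequences came from the same build.

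A group-means model over all 42 arrays (21 residual degrees of freedom) was fitted with limma 3.58.1 in R 4.3.3, with a variance trend and Benjamini-Hochberg adjustment over 11388 genes, and a gene was called at an adjusted p under 0.05. Every adjusted p is from limma, in this fit unless the sentence names another. The number of arrays limits precision. The script was tested on simulated data. Per comparison the 5 largest called rises and falls without overlap are named, with fixed isoforms and single subunits, and up to 3 genes per list by adjusted p. Further members were named after their values were seen. Members and lists were chosen with earlier results of these data known. Replicate numbers were not treated as pairing, since no label says so and of 210 pairs of groups 88 had a correlation of deviations over 0.1 (median 0.065), as had 10 of 24 pairs of one day. The 3 inducer groups of day 2 did correlate, at 0.21, 0.31 and 0.74. Replicate 2 had the higher spike-in ratio with each inducer on day 2 (2.15 to 2.35 against 0.88 to 1.48) and on day 7 (1.97 to 2.30 against 1.17 to 1.32). Alternatives covered filter, normalization, probe sets, variance trend, replicate block, spike-in ratio, days and left-out arrays.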

Additional observations from a re-analysis of the deposited data

How the results depend on the processing

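Of 299 counts of members called under an alternative, 226 lay within 1.5 times the reported count, and no direction reversed. Of 64 named calls 22 ended in at least 1 setting that kept all arrays and days. Without the signal filter the NGAL late minus early count was 0, as it was without the variance trend. Quantile normalization applied again gave 6 for induced day 1, 5 for ANX minus control, 1 for LIF late minus early and 4 for ANX late minus early. The mean of probe sets gave 1 for control day 1. With the replicate number as a block, although the numbers are not known to pair the samples, the counts were 4 for control day 1, 7 for ANX minus control, 2 for NGAL late minus early and 1 for LIF minus ANX. With the spike-in ratio as a covariate they were 4 for control day 1, 1 for control day 2, 6 for ANX minus control, 2 for NGAL late minus early and 7 for ANX late minus early. Day 1 alone gave 0 for LIF and 0 for ANX against control, and day 2 alone gave 1 for LIF. Day 7 against day 1 gave 10 for NGAL. Arrays with a low spike-in ratio, a choice made after seeing the data, gave 0 for control day 1, 1 for LIF late minus early, 8 for NGAL late minus early, 8 for induced day 7 and 1 for LIF minus ANX, and 0 on day 1 alone for LIF and for ANX. Leaving out 1 array gave 0 to 2 for control day 1, 1 for control day 2, 1 to 14 for induced day 1, 3 to 20 for induced day 7, 2 to 8 for LIF, 0 for NGAL and 2 to 6 for ANX against control, 0 to 2, 0 to 5 and 2 to 10 for late minus early with LIF, NGAL and ANX, 15 to 25 for LIF minus NGAL, 0 to 2 for LIF minus ANX, 14 to 24 for NGAL minus ANX and 0 to 1 for inducer by day. Where an array left out leaves 1 in its group, that array is assumed to vary like the other groups. The cause of these changes was not tested. Cox6a2, Cox8b and Cox4i2 lie near the signal threshold, so their differences are bounded by background.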
